A study of Mus musculus with 6 samples.

Results

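The genes described here are 10 cytoskeletal genes of mouse astrocytes: the cytoplasmic actins *Actb* and *Actg1*, the thymosins *Tmsb4x* and *Tmsb10*, the actin-binding genes *Tagln2* and *Flna*, the ERM genes *Msn*, *Ezr* and *Rdx*, and the beta-tubulin *Tubb6*. They were taken by their names as 10 of the 24421 genes listed, a choice made with earlier results of these data known, and all 10 passed the filter on low values that left 15137 genes for testing. RNA was sequenced from hippocampal astrocytes of adult male mice on a C57BL/6 background. In the mice of both groups the genotype was Siglechdtr/dtr, so that every animal carried the diphtheria toxin (DT) receptor at the microglial *Siglech* locus and differed only in what was injected. The control group received PBS and the treated group received DT at 50 µg/kg, both into the peritoneum, and astrocytes were taken 2 days later. Each group held 3 libraries (n = 3), each from a pool of 2 mice, so that a value describes a pool and not an animal. Cells bound by beads against CD11b were first removed from the suspension, and astrocytes were then captured with beads against ACSA-2, a surface antigen of astrocytes. The question addressed here is how genes that build and remodel actin filaments, the membrane cortex and microtubules stood in astrocytes after microglia had been ablated.

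Actin filaments are polymers of actin subunits that are drawn from a pool of free monomers. Beta-thymosins hold monomers back from polymerizing, cross-linking proteins such as filamin A and transgelin-2 tie filaments together, and the ERM proteins ezrin, radixin and moesin link filaments to the plasma membrane. Microtubules are built from alpha- and beta-tubulin. In astrocytes this machinery shapes the fine processes, where ezrin is known to be abundant, while the intermediate filament protein GFAP fills the main branches and is the usual marker of reactive astrocytes.

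Whole reads recovered from the deposited values came to between 21704891 and 32933975 per library. The astrocyte marker list summed to between 30319 and 31908 TPM (a level scaled to transcript length and to the library) in the PBS libraries and between 30384 and 32550 TPM in the DT libraries. A single marker could vary more than the sum. *Aqp4* was at 736, 432 and 378 TPM after PBS and 532, 479 and 1666 TPM after DT. *Aldh1l1* stayed within 334 to 369 TPM after PBS and 340 to 383 TPM after DT. *Siglech* had 21, 71 and 42 reads in the PBS libraries and 0 reads in each DT library, a count that allows up to 3 reads. Markers of other cell types were also read, and the choroid plexus list differed most among libraries of 1 group, from 157 to 2261 TPM after PBS. *Gfap*, the check of the treatment, rose from 1109 ± 131 to 4238 ± 324 TPM (SD, n = 3), with a log2 change (log2 of the fold, DT over PBS) of 1.93 (standard error 0.10, adjusted p = 8.2e-05 by limma).

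None of the 10 genes passed the test across all genes (limma on log2 of CPM + 0.1, where CPM scale reads to the size of the library, two-sided, adjusted p under 0.05). Among all genes tested, 0.555% were called higher and 0.159% lower after DT, 0.713% in all. At an unadjusted p under 0.05, 5 of the 10 genes were higher (*Tubb6*, *Flna*, *Tagln2*, *Msn* and *Actb*) and 0 were lower, where 5.91% of all genes were higher and 4.51% lower. All DT libraries exceeded all PBS libraries for 4 of the 10 (*Actb*, *Tagln2*, *Tubb6* and *Flna*), an arrangement seen in 8.75% of all genes, and the reverse was seen for 0 of the 10 and in 7.57% of all genes. The log2 change was positive for 6 genes and negative for 4, with a median of 0.08 beside -0.0052 over all genes tested. The 10 genes were chosen with earlier results of these data known, so these counts are not a test of them. Their median level after PBS was 231 TPM, beside 22.1 TPM over all genes tested. edgeR's exact test and DESeq2, run on whole reads recovered from the deposited values, each called 1 of the 10 genes higher, which was *Tubb6*, where they called 1.26% and 1.5% of all genes higher. edgeR's quasi-likelihood test called none of the 10. In sorted bulk RNA, a difference in the share of cells of a type cannot be told apart from a difference in RNA per cell.

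**Figure D1:**
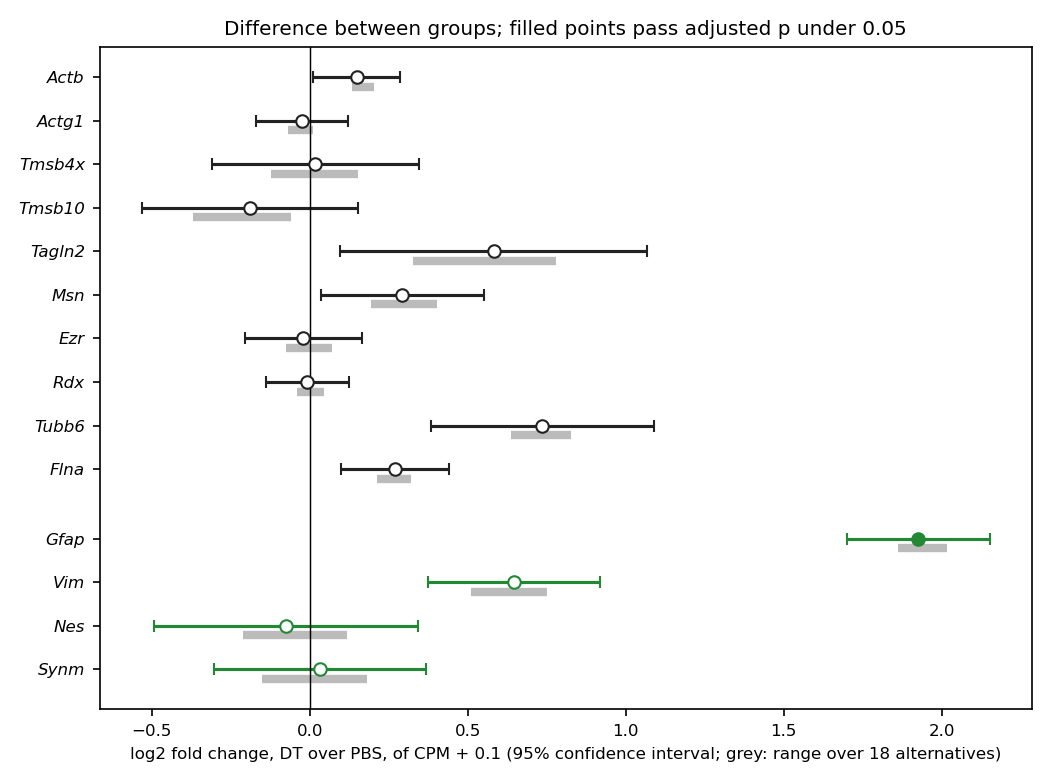
Log2 change of CPM + 0.1, DT over PBS, for the 10 genes (black) and for 4 intermediate filament genes (green), with 95% confidence intervals, and in grey the range over 18 alternative analyses. Filled points pass an adjusted p of 0.05, which *Gfap* alone does; *Tubb6* has the highest estimate of the 10, at 0.74.

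The 10 genes covered a wide range of levels. In the PBS libraries they ranked *Actb*, *Actg1*, *Ezr*, *Tmsb4x*, *Rdx*, *Tmsb10*, *Msn*, *Flna*, *Tagln2* and *Tubb6* by mean TPM, from 2064 TPM down to 7.32 TPM. *Actb* stood at percentile 99.8 of the genes tested, *Ezr* at 99.1, *Msn* at 86.7, *Tagln2* at 57.7 and *Tubb6* at 25.1. In the PBS group, *Msn* and *Flna* were the only neighbours in this order whose libraries overlapped, while in the DT group *Tmsb10* and *Msn* overlapped as well. Their mean levels differed 1.11-fold between *Msn* and *Flna*, 2.27-fold between *Actb* and *Actg1*, and 3.94-fold between *Tagln2* and *Tubb6*.

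**Figure D2:**
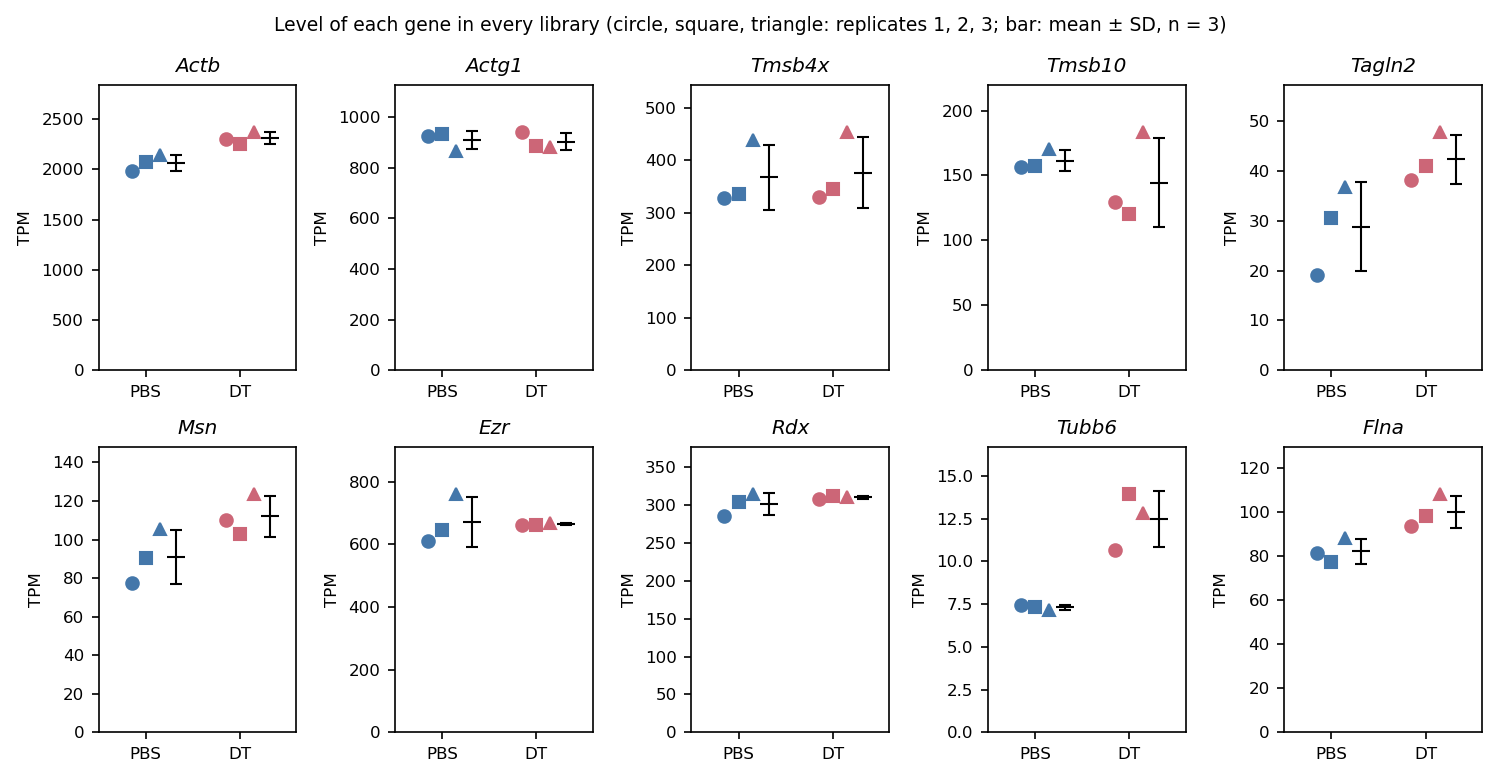
TPM of each of the 10 genes in every library, on axes that start at 0, with the mean and SD of the 3 libraries of each group. The PBS and DT points are separate for *Actb*, *Tagln2*, *Tubb6* and *Flna*, and the spread within the PBS group is wide for *Tagln2*, from 19.1 to 36.7 TPM.

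*Actb* and *Actg1* encode the actins of non-muscle cells, which differ at only a few residues near the amino end. *Actb* lies on the minus strand at chr5:142903115-142906754 (GRCm38) and *Actg1* on the minus strand at chr11:120345690-120348542. Their coding sequences, 1128 bases each, were 88.7% identical, and the longest run of bases shared by their transcripts was 62, shorter than a read. The first 60 coding bases are shown because this stretch holds the codons that set the isoforms apart, with capitals marking the 9 bases that differ between the genes. Both stretches lie in 1 exon, for *Actb* at chr5:142905627-142905686 and for *Actg1* at chr11:120348032-120348091, minus strand.
Actb: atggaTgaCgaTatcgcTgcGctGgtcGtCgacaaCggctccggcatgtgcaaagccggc
Actg1: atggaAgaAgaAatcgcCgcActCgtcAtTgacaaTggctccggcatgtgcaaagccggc

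*Actb* was measured at 1979, 2074 and 2139 TPM in the PBS libraries and at 2303, 2251 and 2370 TPM in the DT libraries. All DT libraries were above all PBS libraries, by a narrow margin. The log2 change was 0.15 (standard error 0.06, 95% interval 0.01 to 0.29, adjusted p = 0.445 by limma), or 1.11-fold, and it did not pass the test. *Actg1* was measured at 924, 934 and 868 TPM after PBS and at 940, 885 and 880 TPM after DT. Its groups overlapped, and its log2 change of -0.02 had a 95% interval from -0.17 to 0.12. The sign of the *Actg1* estimate turned with quantile normalization and without PBS replicate 1 or DT replicate 2, and values stayed between -0.07 and 0.01 on the log2 scale.

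The actins summed to 2972 ± 60.2 in the PBS group and 3210 ± 64.1 TPM in the DT group (SD, n = 3), with no overlap between the groups (exact permutation test, two-sided p = 0.1, the smallest that 3 against 3 libraries allow). *Actb* made up 69.4% ± 1.54 of this sum after PBS and 71.9% ± 0.965 after DT (SD, n = 3). These shares overlapped between the groups (exact permutation test, p = 0.2, adjusted p = 0.28 over 7 ratios). Of the other actin genes, only the smooth muscle actin *Acta2*, also on the list of mural cell markers, was high enough to be tested, with a log2 change of 0.08. *Mir6935*, a microRNA gene annotated within *Actg1*, was listed with 11 to 27 reads per library.

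*Tmsb4x* and *Tmsb10* encode thymosin beta-4 and beta-10, small peptides that bind actin monomers. *Tmsb4x* lies on the minus strand at chrX:167207093-167209315 and *Tmsb10* on the minus strand at chr6:72957347-72958748. Their coding sequences of 135 bases were 70.4% identical, with no shared run of transcript bases longer than 10. The first 60 coding bases show how far the pair has diverged, with the 15 bases that differ in capitals. They lie in 1 exon each, at chrX:167207977-167208036 and at chr6:72957953-72958012, minus strand.
Tmsb4x: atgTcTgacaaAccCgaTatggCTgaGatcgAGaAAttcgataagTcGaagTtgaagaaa
Tmsb10: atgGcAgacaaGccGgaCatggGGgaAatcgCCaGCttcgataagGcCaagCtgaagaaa

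*Tmsb4x* was measured at 328, 336 and 439 TPM in the PBS libraries and at 329, 344 and 453 TPM in the DT libraries. Replicate 3 of each group stood above the other libraries, and the other 4 libraries lay within 328 to 344 TPM. Its log2 change was 0.02 (standard error 0.14, 95% interval -0.31 to 0.34). *Tmsb10* was measured at 156, 157 and 171 TPM after PBS and at 129, 120 and 183 TPM after DT. The DT group held both the lowest and the highest library, and the log2 change of -0.19 (standard error 0.15, 95% interval -0.53 to 0.15, adjusted p = 0.715 by limma) did not pass the test. Without DT replicate 3 the *Tmsb4x* estimate was -0.12 and the *Tmsb10* estimate -0.37, on the log2 scale, and without DT replicate 2 the *Tmsb10* estimate was -0.059. *Tmsb4x* made up 69.3% ± 2.36 of the thymosin sum after PBS and 72.4% ± 1.55 after DT (SD, n = 3, exact permutation test, p = 0.3).

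On the list of actin monomer binding genes, which also holds profilins, cyclase-associated proteins and twinfilins, 0 of 10 genes tested passed in either direction, and the median log2 change was -0.02. The smallest p belonged to the twinfilins, which bind actin monomers and filament ends. *Twf1* was at 76.6 ± 4.96 TPM after PBS and 89.8 ± 2.62 TPM after DT (SD, n = 3), and *Twf2* at 40.4 ± 5.42 and 33.8 ± 1.29 TPM.

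*Ezr*, *Rdx* and *Msn* encode ezrin, radixin and moesin. *Ezr* lies on the minus strand at chr17:6738041-6782784, *Rdx* on the plus strand at chr9:52047173-52088735 and *Msn* on the plus strand at chrX:96096042-96168552. Their coding sequences were 70.4% to 73.8% identical in pairs, and no pair of transcripts shared a run of more than 32 bases. *Sytl3*, which overlaps *Ezr* on the other strand, had 6 to 18 reads per library, beside 14127 to 22081 reads of *Ezr*.

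*Ezr* was the leading ERM gene, at 609, 646 and 760 TPM in the PBS libraries and 662, 663 and 670 TPM in the DT libraries. The DT libraries all lay inside the range of the PBS libraries. Its log2 change was -0.02 (standard error 0.08, 95% interval -0.21 to 0.16), an interval of 0.867-fold to 1.12-fold, and its sign turned without PBS replicate 3, at 0.07. *Rdx* was at 285, 303 and 314 TPM after PBS and 307, 312 and 311 TPM after DT. Its groups overlapped, and its log2 change of CPM + 0.1 was -0.0072 (95% interval -0.14 to 0.12), whereas the same fit on TPM gave 0.04.

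*Msn* was at 77.3, 90.7 and 105 TPM in the PBS libraries and 110, 103 and 123.5 TPM in the DT libraries. PBS replicate 3 lay above DT replicate 2, so that the groups overlapped. The log2 change was 0.29 (standard error 0.11, 95% interval 0.04 to 0.55, adjusted p = 0.424 by limma), or 1.23-fold. It was positive in each of the 18 alternatives, from 0.19 without PBS replicate 1 to 0.40 without PBS replicate 3, and passed the threshold in none of them. As a share of the ERM sum, *Msn* was at 7.95%, 8.72% and 8.93% after PBS and 10.2%, 9.53% and 11.2% after DT, and here the groups did not overlap (exact permutation test, p = 0.1, the smallest possible, adjusted p = 0.175 over 7 ratios). The share of *Ezr* was 63.1% ± 1.21 after PBS and 61.2% ± 0.454 after DT (SD, n = 3), with every DT library below every PBS library (exact permutation test, p = 0.1). The difference in the *Ezr* share, -1.89 percentage points, was -1.39 when computed from CPM (exact permutation test, p = 0.3) and -1.21 without PBS replicate 3. The share of *Rdx* was 28.4% ± 1.53 and 28.5% ± 0.399 (SD, n = 3, exact permutation test, p = 1). The ERM sum itself was 1063 ± 105 TPM after PBS and 1087 ± 14.7 TPM after DT (SD, n = 3), with overlapping groups (exact permutation test, p = 0.7).

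**Figure D3:**
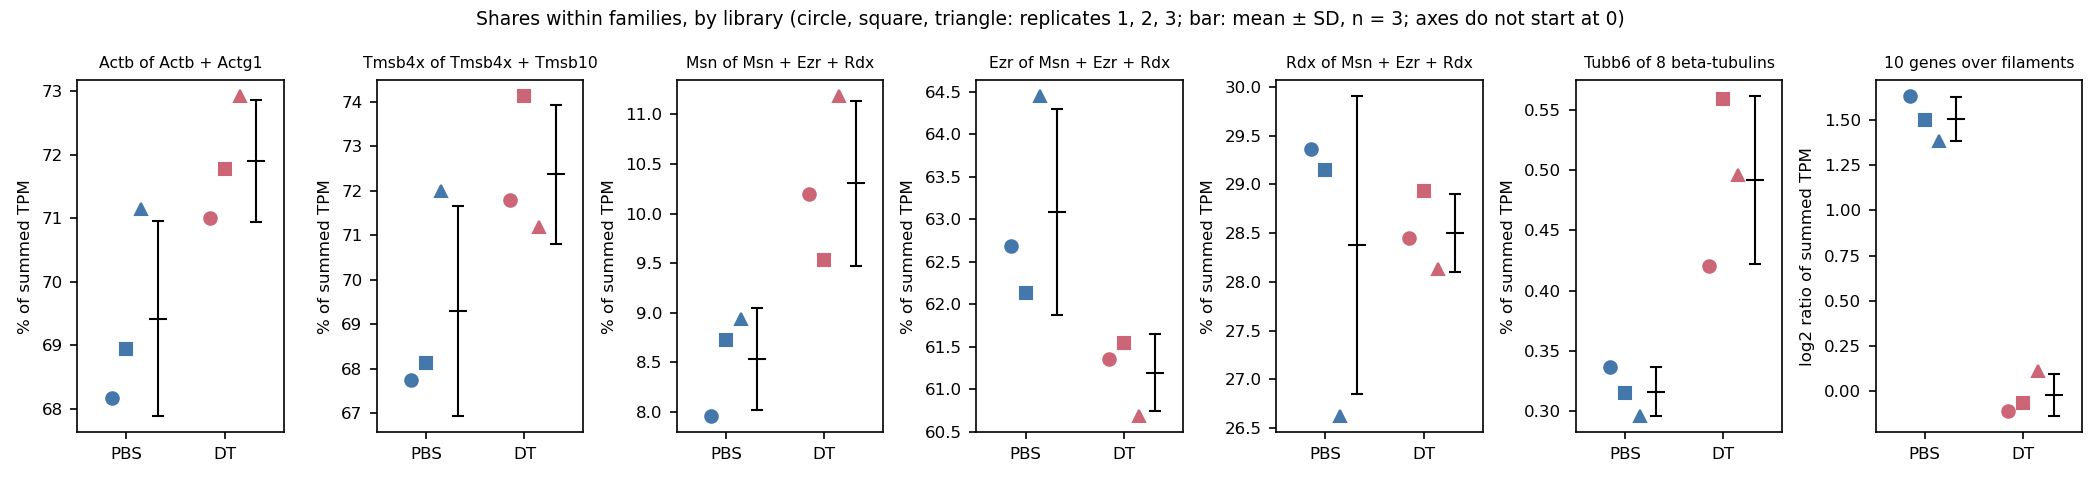
Share of each gene within its family in every library, in percent of summed TPM, and the log2 ratio of the 10 genes to 4 intermediate filament genes, with mean and SD of the 3 libraries per group. The axes do not start at 0. The *Msn* share runs from 7.95% to 8.93% after PBS and from 9.53% to 11.2% after DT, while the *Rdx* shares overlap.

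The list of ERM proteins and their partners held genes that passed the test. Of 15 genes tested, 3 rose (*Cd44*, *Icam1* and *Pdpn*) and 1 fell (*Selplg*), where 0.555% of all genes tested rose and 0.159% fell. The median of the list was 0.0031 on the log2 scale. This list too was chosen with earlier results of these data known, so the count is not a test of it. *Cd44*, *Icam1*, *Pdpn* and *Selplg* all encode membrane proteins whose cytoplasmic tails bind ERM proteins. *Cd44*, a receptor for hyaluronan, was at 5.99, 8.35 and 8.94 TPM after PBS and 26.3, 25.3 and 27.3 TPM after DT, a log2 change of 1.75 (standard error 0.14, adjusted p = 0.000881 by limma). *Icam1*, an adhesion molecule, was at 7.42 ± 1.29 TPM after PBS and 15.8 ± 0.127 TPM after DT (SD, n = 3, log2 change of 1.08, adjusted p = 0.0174 by limma). *Pdpn*, which encodes podoplanin, was at 192, 184 and 176 TPM after PBS and 245, 245 and 239 TPM after DT (log2 change 0.39, adjusted p = 0.0346 by limma). *Selplg*, the P-selectin ligand of leukocytes and 1 of the 20 microglia markers, had 110, 220 and 154 reads in the PBS libraries and 5, 9 and 28 reads in the DT libraries (log2 change -3.52, adjusted p = 0.0216 by limma). *Cd44* passed in all 18 alternatives. The *Icam1* call was lost without PBS replicate 2 or any DT replicate (adjusted p from 0.0604 to 0.0967 by limma), the *Pdpn* call without PBS replicate 2 or 3 or any DT replicate (0.0941 to 0.161), and the *Selplg* call without any library but DT replicate 3 (0.0598 to 0.0967). Without the variance trend these 3 calls were lost too, at adjusted p of 0.0582, 0.182 and 0.104 by limma.

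*Tagln2* encodes transgelin-2, a small actin-binding protein of the calponin family, and lies on the plus strand at chr1:172500047-172507380. It was at 19.1, 30.6 and 36.7 TPM in the PBS libraries and 38.1, 41.1 and 47.8 TPM in the DT libraries. The groups did not overlap, with PBS replicate 3 just below DT replicate 1. The log2 change was 0.58 (standard error 0.21, 95% interval 0.10 to 1.07, adjusted p = 0.395 by limma). It was positive in each of the 18 alternatives, from 0.33 without PBS replicate 1 to 0.78 without PBS replicate 3.

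*Flna* encodes filamin A, a large protein that joins actin filaments into networks, and lies on the minus strand at chrX:74223461-74249820. It was at 81.2, 77.1 and 88.1 TPM in the PBS libraries and 93.6, 98.2 and 108 TPM in the DT libraries. Every DT library was above every PBS library. Its log2 change was 0.27 (standard error 0.07, 95% interval 0.10 to 0.44, adjusted p = 0.242 by limma), or 1.21-fold, from 5122 to 8398 reads per library. Over the 18 alternatives it lay between 0.21 and 0.32 and its adjusted p by limma, edgeR or DESeq2 between 0.0755 and 0.548.

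The list of filament cross-linking genes, to which *Flna* and *Tagln2* belong, had 2 genes of 26 that rose and 0 that fell. Of all genes tested, 0.555% rose and 0.159% fell. The median log2 change of the list was 0.13. *Cnn3*, a calponin that binds actin filaments, was at 522, 547 and 527 TPM after PBS and 725, 692 and 712 TPM after DT, a log2 change of 0.40 (standard error 0.06, adjusted p = 0.0173 by limma). *Flnc*, the filamin C gene, was at 7.02, 7.12 and 7.62 TPM after PBS and 12.3, 11.2 and 15.9 TPM after DT, a log2 change of 0.83 (standard error 0.13, adjusted p = 0.0306 by limma). For both genes the DT libraries all exceeded the PBS libraries. The *Cnn3* call was lost when any library was left out (adjusted p from 0.0532 to 0.0669 by limma) and the *Flnc* call without any PBS replicate or DT replicate 1 (0.0723 to 0.105). Without the variance trend the adjusted p was 0.138 for *Cnn3* and 0.139 for *Flnc*, and on TPM it was 0.0950 for *Flnc* (limma). At an unadjusted p under 0.05, 8 of the 26 genes were higher and 0 lower, where 5.91% of all genes were higher and 4.51% lower. This list was chosen with earlier results of these data known, so the count is not a test of it.

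*Tubb6*, on the plus strand of chromosome 18 from 67390717 to 67402749, is a minor beta-tubulin. It was at 7.44, 7.34 and 7.17 TPM in the PBS libraries and 10.7, 13.9 and 12.8 TPM in the DT libraries. The PBS libraries lay close together and every DT library was well above them. The log2 change was 0.74 (standard error 0.15, 95% interval 0.38 to 1.09, adjusted p = 0.107 by limma), or 1.67-fold, with 93 to 249 reads per library. edgeR's exact test gave an adjusted p of 0.00705 and DESeq2 0.0142, and over the 18 alternatives the adjusted p ran from 0.00705 to 0.405. The estimate itself lay between 0.64 and 0.83 on the log2 scale in all of them.

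*Tubb6* was a small part of the beta-tubulin RNA. The 8 beta-tubulin genes summed to 2320 ± 107 TPM after PBS, of which *Tubb2a* gave 854 TPM, *Tubb4b* 670 TPM, *Tubb2b* 626 TPM and *Tubb5* 121 TPM, and they summed to 2537 ± 48.1 TPM after DT (SD, n = 3). The sums did not overlap (exact permutation test, p = 0.1). The share of *Tubb6* was 0.337%, 0.315% and 0.296% in the PBS libraries and 0.420%, 0.560% and 0.496% in the DT libraries. These shares did not overlap either (exact permutation test, p = 0.1, adjusted p = 0.175 over 7 ratios). On the list of tubulins, 0 of 15 genes passed in either direction, and the median log2 change was 0.10. *Tuba1a*, an alpha-tubulin, was next to *Tubb6* by p, at 520 ± 19.0 TPM after PBS and 639.5 ± 40.6 TPM after DT (SD, n = 3, log2 change 0.28, adjusted p = 0.184 by limma).

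The 10 genes were next set beside the intermediate filament genes. Together the 10 summed to 4466, 4655 and 4926 TPM in the PBS libraries and 4924, 4831 and 5159 TPM in the DT libraries, with overlapping groups (exact permutation test, p = 0.3). The sum of *Gfap*, *Vim*, *Nes* and *Synm* was 1658 ± 223 after PBS and 5046 ± 274 TPM after DT (SD, n = 3). The log2 ratio of the first sum to the second was 1.51 ± 0.12 after PBS and -0.02 ± 0.12 after DT (SD, n = 3), with no overlap (exact permutation test, p = 0.1, adjusted p = 0.175 over 7 ratios). *Gfap*, the check of the treatment, gave most of the filament sum, at 1109 TPM after PBS and 4238 TPM after DT in the group means. The ratio therefore largely restates the rise of *Gfap*. Among these filament genes only *Gfap* passed the test, and *Nes* and *Synm* had log2 changes of -0.075 and 0.033. *Vim*, which encodes vimentin, was at 457 ± 80.1 and 716 ± 53.9 TPM (SD, n = 3, log2 change 0.65, adjusted p = 0.0616 by limma), and it passed with edgeR's exact test, with DESeq2 and with the replicate number as a block (0.0483).

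The other cytoskeletal lists held no gene that passed. Over all 14 lists, 250 genes were tested, of which 6 rose and 1 fell, all named above. The shares over all genes tested were 0.555% and 0.159%. On the lists, 35 genes were higher and 8 lower at an unadjusted p under 0.05. Without the 10 genes described here, 30 of 240 genes (12.5%) were higher and 8 lower at that level, beside 5.91% and 4.51% of all genes tested. The lists were chosen with earlier results of these data known, so these shares are not a test of the lists. Among 26 genes of the Arp2/3 complex and its activators, which start branched filaments, the smallest p belonged to *Arpc4*, a subunit of the complex, at 61.1 ± 4.56 TPM after PBS and 78.3 ± 5.19 TPM after DT, and *Nckap1l*, a WAVE complex subunit of blood cells, at 3.001 ± 0.776 and 1.48 ± 0.158 TPM (SD, n = 3). Among 26 capping and severing genes, the gelsolin gene *Gsn* was at 79.7 to 139 TPM after PBS and 161 to 219 TPM after DT, and *Capg*, which caps filament ends, at 11.6 ± 2.75 and 17.9 ± 2.47 TPM (SD, n = 3). The 13 formins and Ena/VASP genes had the lowest list median, -0.12, with *Fhod3* at 6.01 and 8.42 TPM and *Enah* at 84.9 and 69.1 TPM in the group means.

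For the tropomyosins and nonmuscle myosins the median was -0.0016 over 16 genes, and the tropomyosin *Tpm3* had the smallest p, at 163 ± 22.0 and 198 ± 17.0 TPM (SD, n = 3), followed by *Myh10*, a nonmuscle myosin heavy chain, at 45.8 and 49.5 TPM. Among 31 microtubule regulators, *Tppp3*, which promotes tubulin assembly, was at 135 ± 5.87 and 183 ± 48.0 TPM, and the stathmin gene *Stmn1* at 131 ± 27.7 and 163 ± 6.76 TPM (SD, n = 3). The *Tppp3* mean after DT was raised by replicate 3, with libraries at 156, 154 and 238 TPM. A further list held SRF and its MRTF cofactors, regulators of actin gene transcription, with only some of their targets. None of its 13 genes tested reached an unadjusted p under 0.05. *Elk1* and *Elk4*, partners of SRF, had log2 changes of -0.21 and 0.14. *Actb* and *Flna*, counted on other lists, had unadjusted p of 0.037 and 0.0062 by limma, so this count does not cover all SRF targets. Among 26 focal adhesion genes, the log2 change of *Pdlim4* was 0.58 (adjusted p = 0.0969 by limma) and that of the adaptor *Bcar1* 0.24.

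**Figure D4:**
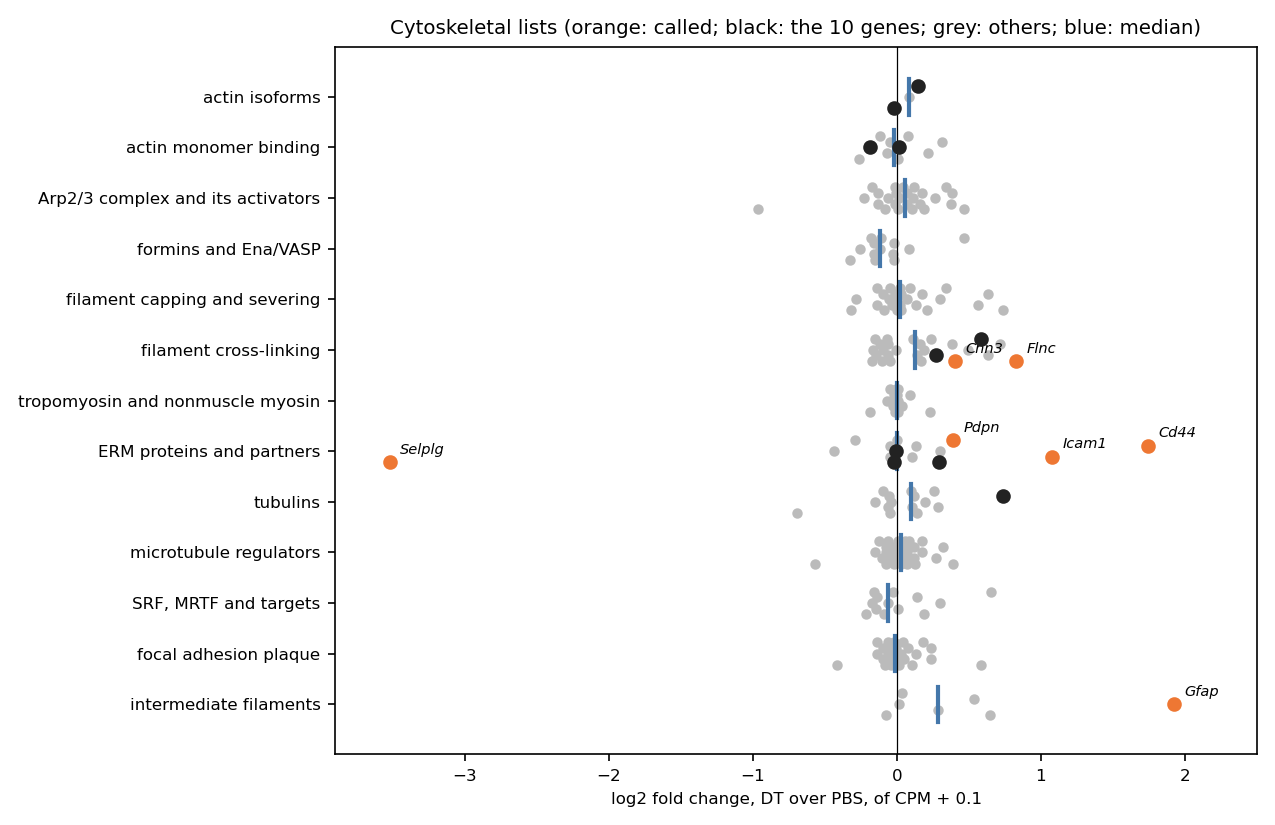
Log2 change of CPM + 0.1, DT over PBS, for genes of the cytoskeletal lists described in the text, each point a gene, with called genes in orange and named, the 10 genes described here in black, other genes in grey and the list median as a blue bar. Most points lie near 0, *Gfap* and *Cd44* lie farthest to the right at 1.93 and 1.75, and *Selplg* lies farthest to the left at -3.52.

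The 10 genes also varied among libraries of the same group. Of the 10, 8 were highest in PBS replicate 3 within the PBS group, where 33.1% of all genes tested were, and 6 were highest in DT replicate 3 within the DT group, where 34.6% were. The genes *Actb*, *Tmsb4x*, *Tmsb10*, *Tagln2*, *Msn* and *Flna* were highest in replicate 3 of both groups, as 14.8% of all genes were. When both of these libraries were left out, a step chosen after the values had been seen, 0 of the 10 passed, and 4 of the 10 (*Tagln2*, *Msn*, *Tubb6* and *Flna*) were higher at an unadjusted p under 0.05, as were 4.63% of all genes. At the same level 1 of the 10 was lower, *Tmsb10* (log2 change -0.32, unadjusted p = 0.0215 and adjusted p = 0.499 by limma), as were 3.43% of all genes. The log2 changes were then 0.69 for *Tagln2*, 0.33 for *Msn*, 0.70 for *Tubb6* and 0.27 for *Flna*.

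Markers of other cell types moved with the treatment as well. The 20 microglia markers summed to 357 to 461 TPM in the PBS libraries and 208 to 234 TPM in the DT libraries, and 10 of them fell, among them *Itgam* from 9.96 ± 1.97 to 1.12 ± 0.301 TPM and *Cx3cr1* from 14.2 ± 3.88 to 1.74 ± 0.421 TPM (SD, n = 3). The 10 markers of border-associated macrophages summed to 24.4 to 39.5 TPM and 71.8 to 93.1 TPM, and 3 of the 8 tested rose, with *Mrc1* at 8.22 ± 1.65 and 23.0 ± 0.788 TPM and *Lyve1* at 1.14 ± 0.385 and 11.8 ± 3.22 TPM (SD, n = 3). The 12 ependymal markers summed to 673 to 845 TPM and 900 to 1507 TPM, and the 8 markers of oligodendrocyte precursors to 280 to 318 TPM and 242 to 268 TPM, with no gene of either list passing the test, and *Foxj1* at 91.4 ± 13.7 and 138 ± 42.2 TPM (SD, n = 3). The sums of the choroid plexus, endothelial, mural, fibroblast, monocyte, oligodendrocyte and neuronal lists overlapped between the groups. For choroid plexus epithelium they ran from 157 to 2261 TPM after PBS and from 1418 to 3805 TPM after DT, mostly *Ttr*, and for endothelial cells from 884 to 1433 TPM and from 755 to 936 TPM. *Cldn5*, of the endothelium, was at 221 ± 46.6 and 150 ± 10.3 TPM and *Pdgfrb*, of mural cells, at 149 ± 18.7 and 147 ± 14.1 TPM (SD, n = 3). Gene by gene, all 11 choroid plexus markers had positive log2 changes (median 1.57, 8 of them at an unadjusted p under 0.05), all 12 ependymal markers did too (median 0.49, 8 of them at that level), and all 12 endothelial markers had negative ones (median -0.39, 5 of them at that level), with none passing the adjusted test. The monocyte markers *Plac8* and *Chil3* were at 0 in every library. Many of the 10 genes are expressed widely, *Msn*, *Tmsb4x*, *Actb* and *Tagln2* in blood and vascular cells too. The part of these cells in the values of the 10 genes was not tested. Nor was that of microglia, border-associated macrophages, ependymal cells, choroid plexus or any other cell type listed above.

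**Figure D5:**
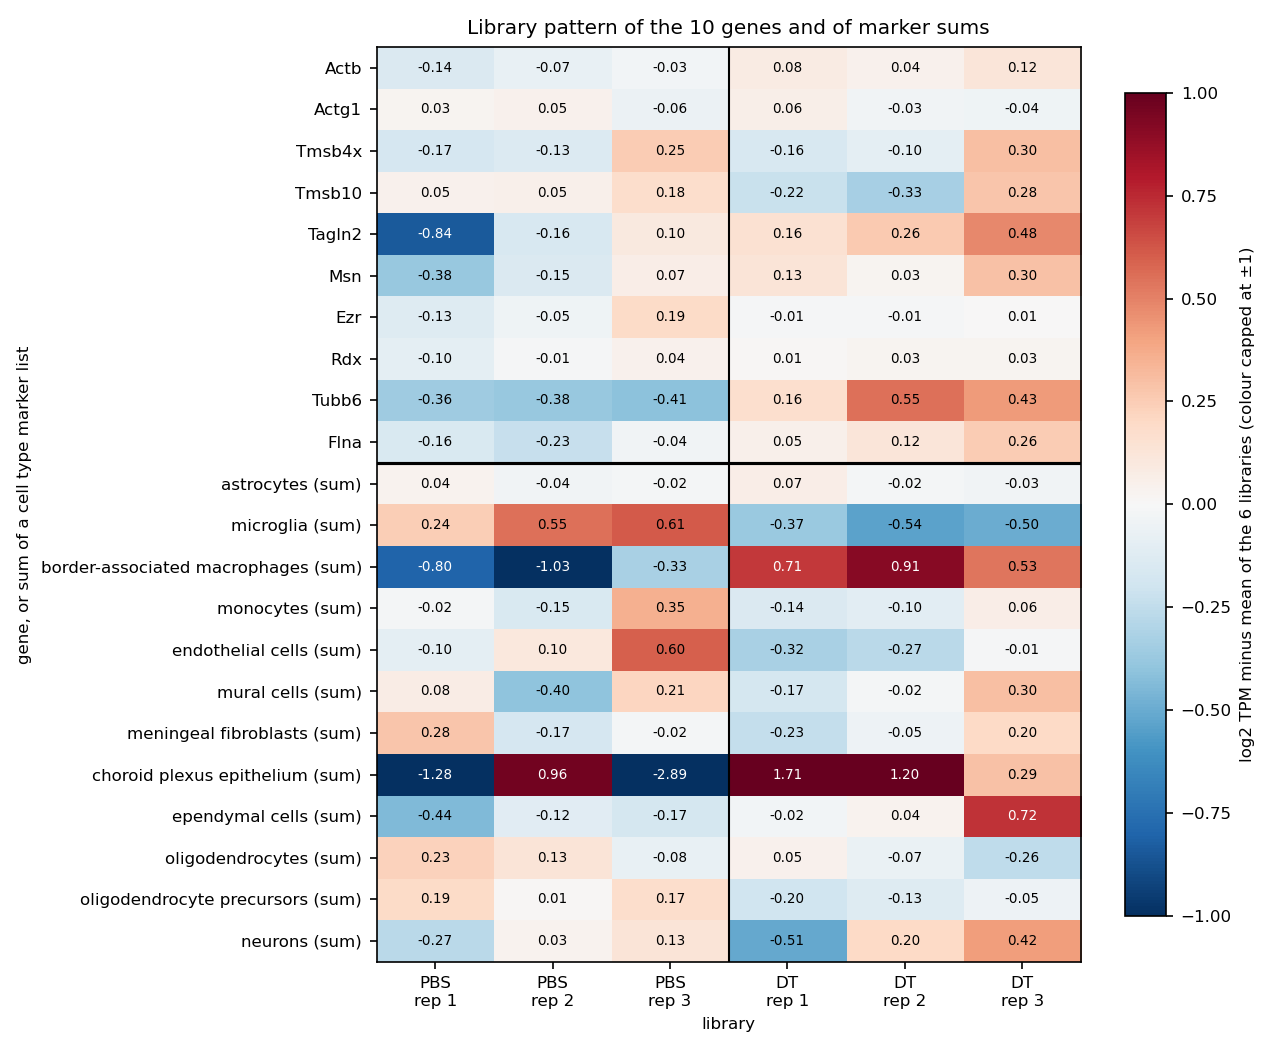
Deviation of log2 TPM from the mean of the 6 libraries, for the 10 genes above the black line and for summed marker lists below it, with the value in each cell and colours capped at ±1. *Tubb6* is below 0 in all PBS libraries and above 0 in all DT libraries, the microglia sum shows the reverse, and the choroid plexus sum has the widest range, from -2.89 to 1.71.

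The genes most like *Actb*, *Msn* and *Tubb6* over the 6 libraries were sought among genes whose CPM averaged 20 or more. For *Actb* they were *Ftl1*, *Hint1* and *Pebp1* (Pearson r of 0.985, 0.984 and 0.983 over 6 libraries), and 121 of 7715 genes had an r over 0.9. For *Msn* they were *Cct5*, *Clic1* and *Sod1* (0.994, 0.987 and 0.985), with 77 genes over 0.9. For *Tubb6* they were *Gnl3*, *Mrpl51* and *Dnajc10* (0.984, 0.982 and 0.981), with 115 of 7716 genes over 0.9. These points share the libraries, their scaling and the split between the groups, and with so many genes compared over so few libraries the r values describe these libraries only.

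The CArG box, the site bound by SRF, was searched for by name in promoters from 250 bases before to 50 bases after each start (RefSeq, GRCm38.p6, both strands, which this palindromic pattern makes the same). It was present in 1.63% of 32851 promoters and, of the 10 genes, 8 of which had a promoter in the table, in that of *Actg1*. The 60 bases around it are shown because *Actg1* is the only one of the 8 with a match, with the box in capitals, 90 to 81 bases before the start, at chr11:120348551-120348610 on the minus strand.
Actg1 promoter: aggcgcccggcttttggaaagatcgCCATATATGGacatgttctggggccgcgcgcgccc
Among tested genes with a promoter in the table, 178 of 11328 (1.57%) held a match. *Actg1*, with the match, had a log2 change of -0.02, and the 7 others searched, which had none, ranged from -0.19 for *Tmsb10* to 0.58 for *Tagln2*. The promoters of *Actb* and *Tubb6* were not searched here.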

How the data were processed

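RNA of hippocampal astrocytes was measured in 3 PBS and 3 DT libraries. Per the labels and methods, the authors trimmed reads with Trim Galore 0.5.0 after FastQC 0.11.8, mapped them to mm10 with HISAT2 2.1.0 using strand, removed ribosomal reads with bedtools 2.25.0 and quantified genes with StringTie 1.3.5 and edgeR 3.24.3 in R 3.5.1. The authors deposited TPM per gene and library, and a signal that is CPM on library sizes scaled by TMM factors (0.974 to 1.02). Every deposited value of that signal was a whole number of reads within 0.1 read, which gave 21704891 to 32933975 reads per library. Columns with the authors' own p-values, q-values and fold changes were not used. In the gene column, 27 names had been turned into dates.

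Genes averaging 0.5 CPM or more were compared on log2(CPM + 0.1), which understates changes of low genes, with limma 3.58.1 in R 4.3.3, a variance trend and Benjamini-Hochberg adjustment. TPM sums and ratios were compared with exact two-sided permutation tests in scipy 1.17.1. Recovered reads were tested with edgeR 4.0.16 and DESeq2 1.42.0. In data simulated for 15018 genes of this comparison, limma called 21.3% of genes changed by 0.5 on the log2 scale, 72.3% of those changed by 1 and 91.1% of those changed by 2, and 5.79% of its calls were false. The methods state that the pools came from 3 independent experiments, without saying which PBS and DT pools belong to 1 experiment, and p-values measure the spread between these pools. Libraries of a group differed far beyond counting noise (mean chi-square per gene 15.6 to 21.6), so none was counted as a repeat.

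The 10 genes and the gene lists were chosen with earlier results of these data known. Named are the 10 genes, list genes that passed (otherwise the 2 with the smallest p), defining markers, the 3 most alike genes, genes overlapping 1 of the 10, and the beta-tubulins and *Acta2*, which were added after their values had been seen. The genes of 1 cytoskeletal list are counted in the totals but not reported here. Coordinates and coding sequences are those of GENCODE M21. Alternatives are given in the closing part.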

Additional observations from a re-analysis of the deposited data

How the results depend on the processing

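In 18 alternatives, the 10 genes gave 180 values, of which 165 kept their direction and side of the threshold, 13 turned sign and 2, both of *Tubb6*, passed. The count of the 10 called higher was 1 with edgeR's exact test and 1 with DESeq2, and 0 in every fit that left out 1 library. Over all genes, 35 were higher and 11 lower without the variance trend, 191 and 72 with edgeR's exact test, 227 and 98 with DESeq2, and 39 to 72 and 9 to 20 when 1 library was left out. Genes of the cytoskeletal lists called higher and lower were 2 and 0 without the variance trend, 11 and 2 with edgeR's exact test, 13 and 2 with DESeq2, and 2 to 4 and 0 to 2 when 1 library was left out. The cause of these shifts was not tested. Without replicate 3 of both groups, 45 genes were higher and 13 lower, and *Ezr* (0.070) and *Rdx* (0.015) turned sign. Signs also turned for *Actg1* (0.01 with quantile normalization, -0.070 to 0.0025 when 1 library was left out), *Tmsb4x* (-0.12 to 0.15), *Ezr* (0.0069 with quantile normalization, -0.074 to 0.071) and *Rdx* (0.044 with TPM, 0.0077 with plain library totals, 0.0062 with quantile normalization, -0.039 to 0.025), all of log2 fold changes near 0. The difference in the share of *Rdx* turned to -0.603 percentage points from CPM and ran from -0.756 to 0.618 when 1 library was left out. Deviations of libraries with the same number correlated at 0.115, 0.0105 and 0.118. Replicates 1 and 3 correlated best with their own number. Replicate 2 did not, by narrow margins (0.0107 for PBS replicate 2 with DT replicate 1, 0.0115 for DT replicate 2 with PBS replicate 3). These values do not settle whether the numbers mark pairs. The main fit used no block because the labels and methods do not name the pairs. With the replicate number as a block, 79 genes were called higher and 30 lower, none of the 10 passed (*Flna* came closest, adjusted p = 0.0809 by limma), and *Vim* passed at 0.0483. At 93 to 249 reads per library, *Tubb6* had the fewest reads of the 10 and so the least precise counts.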
